A study of Mus musculus with 149 samples.

Results

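The albumin family of the mouse was examined through 4 rows named by symbol in the deposited table, Alb, Afp, Afm and Gc, out of 20308 mouse genes. The rule named the genes and used none of their measured values, but the members were chosen with earlier results of these data known. RNA had been measured in 149 single cells of a hepatocyte preparation from 1 untreated wild-type male C57BL/6 mouse of 8 weeks, whose liver was perfused, digested and spun at low speed. The cells were caught on Fluidigm C1 chips, microfluidic plates that trap 1 cell per site, with trap sizes of 5 to 10 µm (small chip, 39 cells), 10 to 17 µm (medium chip, 30 cells) and 17 to 25 µm (large chip, 80 cells), and ERCC spike-ins, synthetic RNAs, were in the lysis mix. Because 1 animal gave all the cells, a chip counts as 1 sample, and differences are described for these cells without p-values.

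The 4 genes arose from one ancestral gene and encode carrier proteins that hepatocytes secrete into the blood. Albumin, the product of Alb, is the main plasma protein and carries fatty acids, bilirubin and many drugs. Alpha-fetoprotein (Afp) is its fetal counterpart, made by the yolk sac and fetal liver and shut down after birth. Afamin (Afm) binds vitamin E and keeps Wnt proteins soluble, and Gc, the vitamin D-binding protein, carries vitamin D and mops up actin released from damaged cells. Transcription of the family in liver is known to rest on factors such as C/EBP and FOXA proteins bound near the gene starts. Within a lobule, blood runs from the portal tract (periportal) to the central vein (pericentral), and many liver genes are expressed unequally along that path.

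The stretches just before the 4 gene starts are shown because Alb and Gc moved together from cell to cell while their neighbour Afp was at 0 in most cells. Each sequence is the 250 bases before the RefSeq start of the gene in build GRCm38.p6, read 5′ to 3′ on the strand of the gene, with the letters GTTAAT or their reverse complement ATTAAC in capitals. They lie at chr5:89457899-89458148 (minus strand) for Gc, chr5:90460620-90460869 (plus strand) for Alb, chr5:90490464-90490713 (plus strand) for Afp and chr5:90518699-90518948 (plus strand) for Afm.
Gc: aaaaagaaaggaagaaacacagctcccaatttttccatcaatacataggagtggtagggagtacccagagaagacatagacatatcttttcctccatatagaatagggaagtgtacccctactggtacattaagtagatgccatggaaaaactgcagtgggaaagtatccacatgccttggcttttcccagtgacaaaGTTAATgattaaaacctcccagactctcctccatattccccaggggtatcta
Alb: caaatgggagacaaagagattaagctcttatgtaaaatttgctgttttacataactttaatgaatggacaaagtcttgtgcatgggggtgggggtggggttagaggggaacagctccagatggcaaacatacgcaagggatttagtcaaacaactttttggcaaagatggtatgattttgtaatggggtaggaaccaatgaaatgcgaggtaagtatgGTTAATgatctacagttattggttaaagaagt
Afp: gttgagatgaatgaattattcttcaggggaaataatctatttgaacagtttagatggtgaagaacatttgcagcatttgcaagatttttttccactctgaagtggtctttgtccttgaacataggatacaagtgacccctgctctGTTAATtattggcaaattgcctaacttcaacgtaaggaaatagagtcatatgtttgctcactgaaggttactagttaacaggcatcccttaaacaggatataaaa
Afm: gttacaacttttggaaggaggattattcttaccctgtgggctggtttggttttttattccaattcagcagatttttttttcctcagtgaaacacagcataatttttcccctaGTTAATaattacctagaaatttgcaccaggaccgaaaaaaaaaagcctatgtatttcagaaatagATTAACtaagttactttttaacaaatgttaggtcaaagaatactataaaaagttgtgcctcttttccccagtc

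All 4 windows held GTTAAT, against 6.43% of the 32851 RefSeq windows of the same length. It began 52 bases before the RefSeq start of Gc, 32 before that of Alb, 105 before that of Afp and 138 before that of Afm, and Afm held the reverse complement as well, beginning 73 bases before its RefSeq start. CCAAT was also in 4 of the 4 (33.8% of all windows), as was CAAAG (48.6%), while TATAAA was in Afp and Afm (12.4%). TGTTTGC, a FOXA motif, was in Alb and Afp (4.30%), TTGCNNAA, a short C/EBP form, likewise in Alb and Afp (9.56%), TATTTG in Afp (10.9%), and TTATGNAA, a form bound by the clock factor DBP, in Alb (3.07%). Of the 15 patterns searched on both strands, 7 were in none of the 4 windows, among them a second FOXA form (TGTTTAC), a second TATA form (TATATAA), the C/EBP palindrome, and HNF4 and NR5A2 forms (GTCCAAAG, TGNACTTTG, CAAGTTCA). The patterns were picked after the windows had been read, some overlap each other, and a match describes letters, not a bound site.

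In the annotation (GENCODE vM21, build mm10, chromosome 5) Alb (90460897 to 90476602), Afp (90490737 to 90508907) and Afm (90518932 to 90553543) follow each other on the plus strand, with gaps of 14.1 kb and 10.0 kb. Gc (89417522 to 89457898) lies on the minus strand 1003 kb before Alb. These starts differ from the RefSeq starts used for the windows above. The windows of Alb and Afp end at 90460869 and 90490713, before the starts given here, and that of Afm ends past its start, at 90518948. Distances of letters from the start therefore depend on the annotation, and the bases just before these starts of Alb and Afp were not searched. The neighbours were far lower than Alb and Gc. Between Gc and Alb, Npffr2, a neuropeptide receptor, was at 0 in all 149 cells, Adamts3, a procollagen protease, was above 0 in 1 cell, Cox18, a mitochondrial assembly factor, in 50 cells, and Ankrd17, an ankyrin repeat protein, in 105 cells with a mean of 42.3. Past Afm, the gene 5830473C10Rik, which RefSeq names Albfm1, was above 0 in 64 cells with a mean of 9.57. It was not among the 4 rows examined here, but it was above 0 in more cells than the member Afp (12 cells, mean 6.48). The antisense gene Gm43449 overlaps Afp and the transcript Gm42109 overlaps the end of Afm. Neither has a row in the table, and whether reads were counted by strand is not given in the sources used here, so reads from a gene and its antisense partner cannot be told apart.

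**Figure D1:**
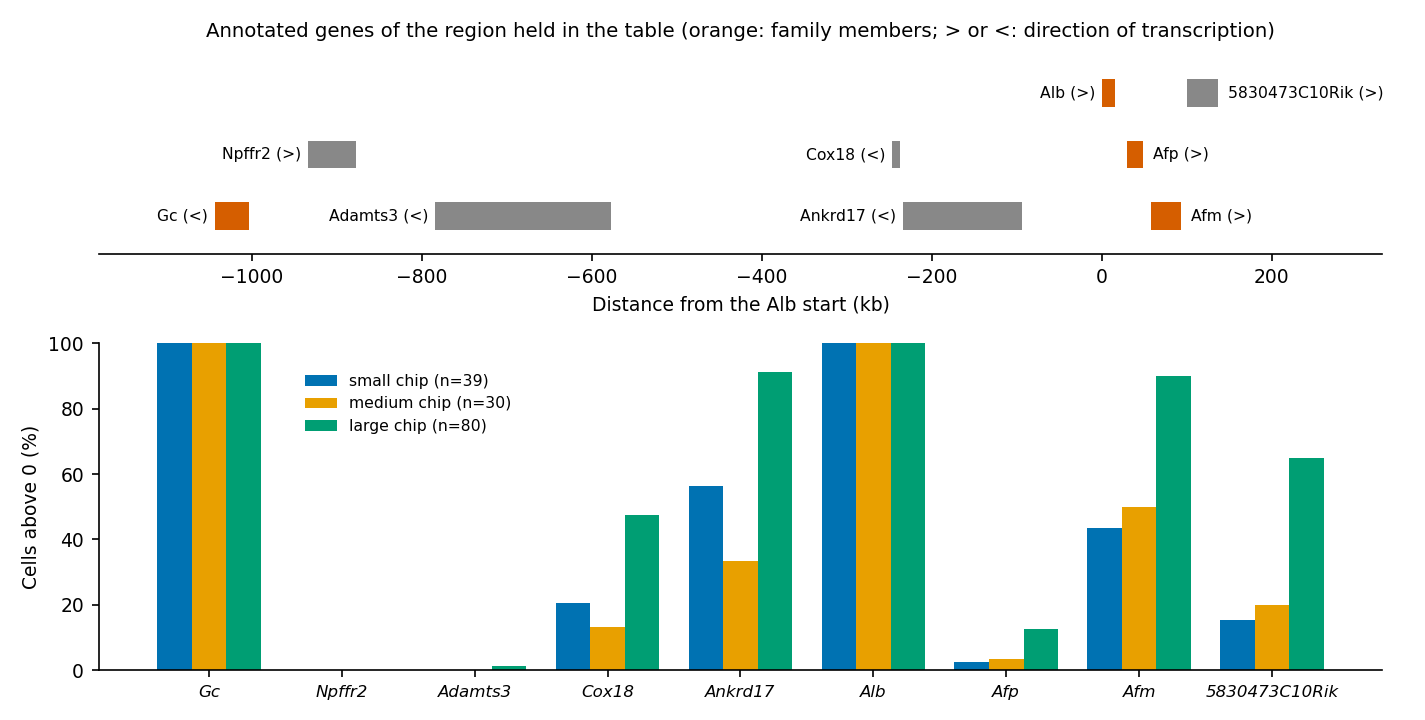
Top: genes of the region that have a row in the table, by distance from the Alb start in kb, family members in orange. Bottom: percent of cells of each chip in which each gene was above 0; Alb and Gc reach 100% in the 3 chips, Afp 2.56%, 3.33% and 12.5% in the small, medium and large chip.

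The deposited values are normalised expected counts, a signal that the authors computed, and read depth is unknown, so the counting error of a value cannot be given. The sum of a cell's values ran from 1464731 to 5928902, spike-ins included, and between 1215 and 8819 mouse genes per cell were above 0. Spike-ins took 50% or more of the sum in 27 small-chip cells, 23 medium-chip cells and 16 large-chip cells, leaving 12, 7 and 64 cells under that limit, so chip and spike-in share are largely entangled here. No 2 columns held the same values. Every cell had at least 7 of 10 hepatocyte markers above 0. At least 3 endothelial markers of 8 were above 0 in 4 small-chip, 1 medium-chip and 15 large-chip cells, and at least 3 of 7 Kupffer cell markers in 10, 7 and 0 cells. At least 3 markers of the endothelial, Kupffer or stellate list were found in 39 of the 149 cells (13, 10 and 16 by chip), and their part in the values below was examined only by leaving those cells out.

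Alb and Gc were above 0 in every cell, Afm in 104 of 149 and Afp in 12 of 149. Alb ran from 2412 to 200850 with a median of 17290 in small-chip cells, from 3936 to 259238 with a median of 22080 in medium-chip cells and from 3846 to 136152 with a median of 30804 in large-chip cells. The ranges overlapped almost wholly, and the highest and the lowest Alb cell lay in the medium and the small chip. Gc ran from 288 to 28094 with a median of 3692 in small-chip cells, from 545 to 28718 with a median of 4624 in medium-chip cells and from 480 to 40222 with a median of 6591 in large-chip cells. For Gc too the chips overlapped, with the highest cell in the large chip.

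Afm was at an intermediate level and at 0 in many cells of the small and medium chips. It was above 0 in 17 of 39 small-chip cells (43.6%), 15 of 30 medium-chip cells (50%) and 72 of 80 large-chip cells (90%). The exact 95% intervals of these shares were 27.8% to 60.4%, 31.3% to 68.7% and 81.2% to 95.6%. Among cells under 50% spike-ins Afm was above 0 in 58.3%, 85.7% and 98.4% of 12, 7 and 64 cells, with intervals of 27.7% to 84.8%, 42.1% to 99.6% and 91.6% to 100% that overlap between the medium and large chip. Cells of a chip are not replicates, so the intervals do not test a difference between chips. Its values ran from 0 to 1694 (median 0) in the small chip, from 0 to 808 (median 0.37) in the medium chip and from 0 to 2318 (median 74.2) in the large chip. Of the large-chip cells it was above 0 in 9 of the 16 whose spike-ins took 50% or more, against 63 of the other 64. Afp was above 0 in 1 small-chip cell (2.56%, 0.0649% to 13.5%), 1 medium-chip cell (3.33%, 0.0844% to 17.2%) and 10 large-chip cells (12.5%, 6.16% to 21.8%). These intervals are Clopper-Pearson and cover the number of cells only.

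**Figure D2:**
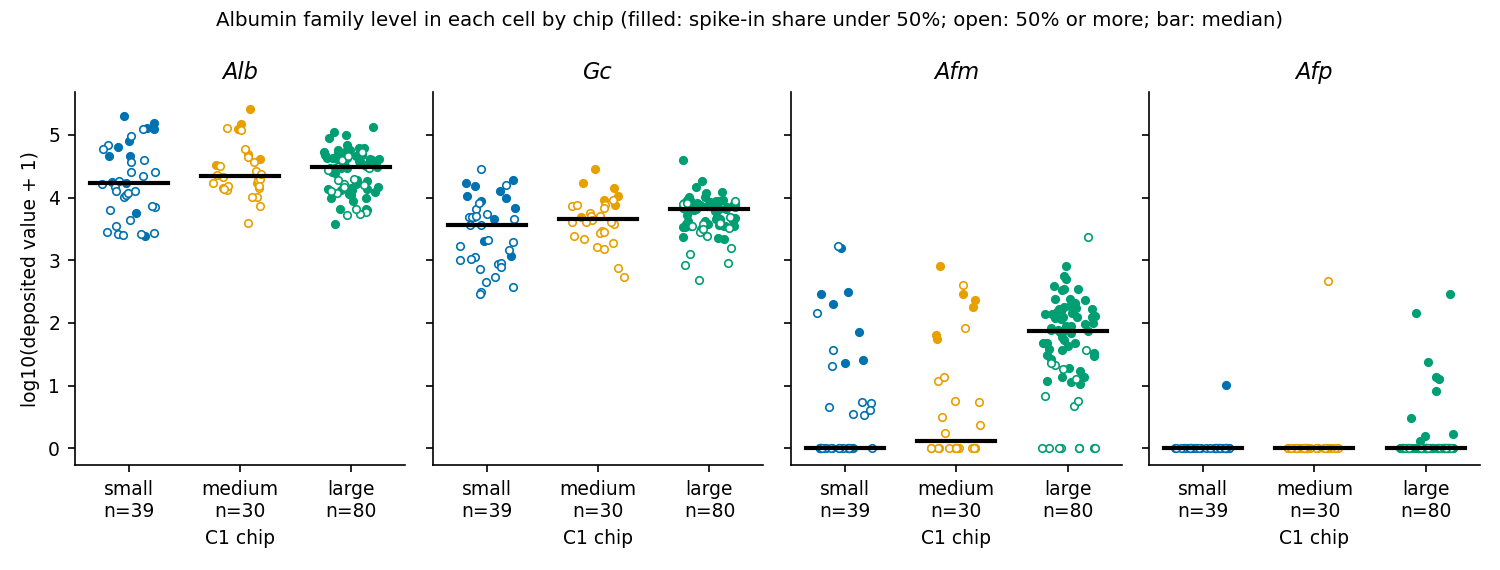
Deposited value of each member in each cell as log10(value + 1), by chip, with the median as a bar; filled points are cells with a spike-in share under 50%, open points 50% or more. Alb and Gc are above 0 in every cell, most small- and medium-chip cells at 0 for Afm are open points, and Afp is at 0 in 137 cells.

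Per kb of the main transcript (2034 bases for Alb, 1801 for Gc, 2038 for Afm and 2063 for Afp), the mean level over all cells was 18413 for Alb, 3478 for Gc, 58.3 for Afm and 3.14 for Afp. Alb thus averaged 5.29 times Gc, 316 times Afm and 5858 times Afp per kb. The SDs per kb over cells were as large as or larger than the means for Alb, Afm and Afp (19506, 141 and 22.4) and slightly smaller for Gc (3037). Within cells, the deposited value of Gc was above that of Alb in 3, Afm was above Gc in none, and Afp was above Afm in 3. Afm and Afp were both at 0 in 44 cells, and 11 cells had all 4 genes above 0. Between chips, the per-kb means of Alb (19344, 22393 and 16467 in the small, medium and large chip) and of Gc (3131, 3452 and 3657) lay well within the spread over cells.

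Alb ranked 8th of all mouse genes by mean level and Gc 32nd, and Afm and Afp ranked 1313th and 7774th. Within single cells Alb was among the 10 highest genes in 100 of 149 cells and the highest of all in 2. Its median rank was 9, 6.5 and 8 in the small, medium and large chip. Small-chip cell 1 stood apart with Alb at rank 332: its Alb value of 2412 was the lowest of the series, and its Gc value of 4505 was higher. Alb took on average 2.71% ± 1.94, 3.28% ± 1.84 and 1.83% ± 0.916 of the mouse gene sum in small-, medium- and large-chip cells (SD, n = 39, 30 and 80 cells), and Gc took 0.447% ± 0.442, 0.543% ± 0.383 and 0.378% ± 0.216.

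Chip means of the 3 members above 0 in at least 20% of cells differed by less than 2-fold in each comparison. The log2 ratio of means (pseudocount 1) of small over large chip was 0.23 for Alb, -0.22 for Gc and -0.31 for Afm, against a median of -0.72 over the 8813 genes tested, of which 12.8% were at least 2-fold higher and 41.9% at least 2-fold lower. For medium over large chip it was 0.44 for Alb, -0.08 for Gc and -0.95 for Afm (median of all genes -0.59), and 12.7% of genes were at least 2-fold higher and 37.5% lower. For small over medium chip it was -0.21 for Alb, -0.14 for Gc and 0.64 for Afm (median of all genes -0.11), with 23.3% and 27.7% of genes past the limit. The medians over cells gave another direction for Alb, with a log2 ratio of -0.83 for small over large and -0.48 for medium over large chip. Where spike-ins took less than 50% of the sum, the mean Alb value was 74006 ± 64494 in 12 small-chip cells, 96165 ± 87113 in 7 medium-chip cells and 36698 ± 25312 in 64 large-chip cells (SD), which gave log2 ratios of 1.01 for small over large and 1.39 for medium over large chip. Gc and Afm turned in direction over these cells, with log2 ratios of 0.36 and 0.60 for small over large chip and 0.85 and 0.77 for medium over large chip, and Afm had -0.17 for small over medium chip. By medians over all cells Afm had log2 ratios of -6.23 for small over large and -5.78 for medium over large chip. For Afp the chip means were 0.242, 15.6 and 6.13 in the small, medium and large chip, and those of the first 2 rest on 1 cell each. Which chip had the higher level of Alb, Gc or Afm thus turned on the summary used, on the spike-in share or on scaling to the mouse gene sum.

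Position along the lobule was read from a landmark score, the mean z-score of 6 pericentral genes (Slc1a2, Gulo, Oat, Cyp1a2, Cyp2e1, Glul) minus that of 6 periportal genes (Pck1, Sds, Hal, Asl, Ass1, Cyp2f2), taken within each chip. No member of the family is a landmark. A gene was called graded when its Spearman rank correlation rho with the score had the same sign in the 3 chips and a mean of at least 0.2 in size. By that rule 0.613% of the 8813 genes were graded pericentral and 16.5% periportal. Of the 3 members tested, none was graded pericentral and 3 were graded periportal. The cells share 1 mouse and, within a chip, its processing, so rho is a description.

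Alb and Gc stood near the periportal end of all genes. For Alb, rho was -0.47, -0.59 and -0.64 in the small, medium and large chip (mean -0.57 ± 0.091, SD over 3 chips). For Gc it was -0.45, -0.63 and -0.62 (mean -0.57 ± 0.10). Ordered from the most periportal mean, Gc was 5th and Alb 6th of the genes tested. Ahead of them Cyp2f2 was 1st, Hal 2nd and Sds 4th, themselves landmarks and correlated without their own value. The gene between Hal and Sds is not a landmark and is not named here. Afm had -0.18, -0.34 and -0.39 (mean -0.30 ± 0.11) and was 393rd. Afp, too rarely above 0 to be tested, had -0.25, 0.01 and -0.04. The median over all genes tested was -0.09, -0.20 and -0.04 in the small, medium and large chip.

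**Figure D3:**
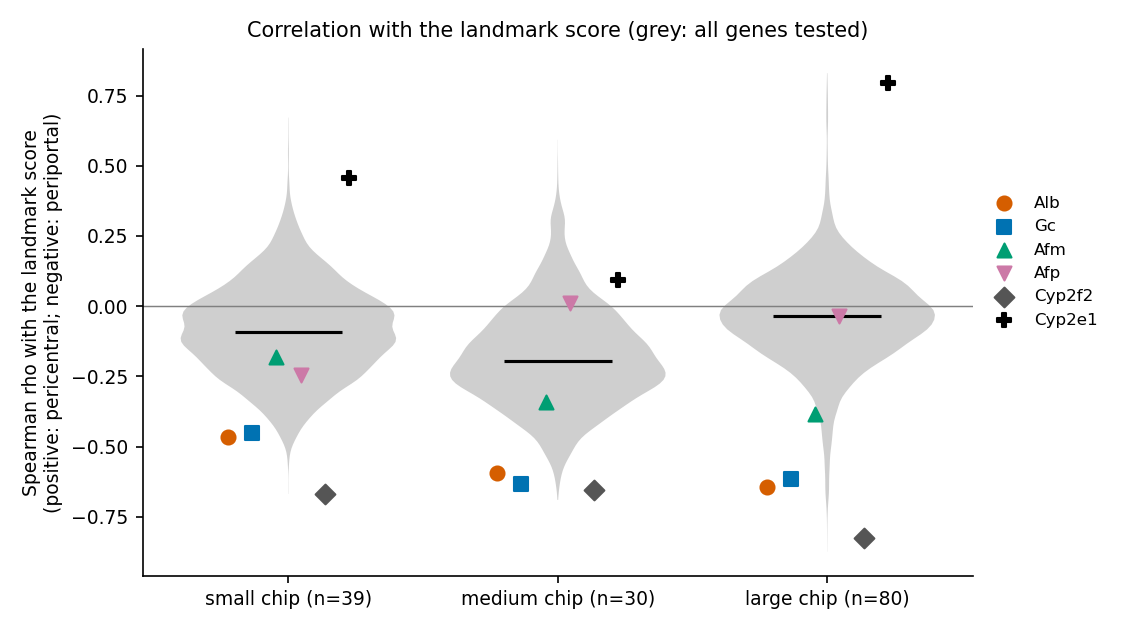
Spearman rho with the landmark score by chip. Grey shapes show all genes tested with their median as a bar, and symbols show the 4 members beside the landmarks Cyp2f2 (periportal) and Cyp2e1 (pericentral); Alb and Gc lie between -0.45 and -0.64 in every chip, and Afm between -0.18 and -0.39.

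The spike-in share moved with these values. Over all cells Alb had a rho with the spike-in share of -0.66, -0.65 and 0.12 in the small, medium and large chip, and Gc had -0.70, -0.68 and 0.06. In the 64 large-chip cells under 50% spike-ins that rho was 0.56 for Alb, 0.60 for Gc and -0.58 for the score, and the part of the spike-in share in the values of these cells was not tested. Within cells under 50% spike-ins, the rho of Alb with the score was -0.83 in 12 small-chip cells, 0.00 in 7 medium-chip cells and -0.72 in 64 large-chip cells, and that of Gc was -0.71, 0.07 and -0.73. The periportal direction of both genes was therefore larger in the small and large chips over these cells alone, and was not seen in the 7 medium-chip cells. For Afm the values were -0.26, 0.00 and -0.46. Over all medium-chip cells Alb, Gc and the score had rho values of 0.70, 0.67 and -0.46 with the mouse gene sum. With each cell rescaled to 1 mouse gene sum, rho with the score was -0.52, -0.19 and -0.67 for Alb in the small, medium and large chip. For Gc it was then -0.53, -0.34 and -0.63, so both were smaller in size in the medium chip. With the number of genes above 0 held constant, the mean rho was -0.52 for Alb, -0.55 for Gc and -0.21 for Afm. That of Afm rested mostly on the large chip, with -0.15, -0.01 and -0.48 in the small, medium and large chip.

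The 64 large-chip cells under 50% spike-ins were then put into 4 bins of 16 by score, from the periportal to the pericentral end. Median Alb was 44415, 42651, 32491 and 11537 in these bins, and median Gc was 8184, 8149, 6105 and 3548. Both genes were thus nearly level over the first 2 bins and lowest in the last. Afm had medians of 176, 111, 104 and 46.5, with the middle 2 bins close together. In the same bins Cyp2f2 had medians of 5445, 4593, 436 and 4.92 and Cyp2e1 reached medians of 2500 and 16505 in the last 2. Median genes above 0 were 7324, 7558, 7570 and 7861, and median spike-in shares were 4.03%, 3.57%, 2.18% and 2.39%.

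At the 2 ends, Alb ran from 3846 to 33775 in the 16 pericentral cells, against 25713 to 136152 in the 16 periportal cells, and 1 pericentral cell lay above the lowest periportal one. Gc ran from 2254 to 7124 in the pericentral cells and from 6564 to 18519 in the periportal cells, again with 1 cell in the overlap. Afm ran from 0 to 171 in the pericentral cells and from 35.7 to 813 in the periportal cells, and 9 pericentral cells lay above the lowest periportal one. Periportal medians were 3.85 times the pericentral ones for Alb, 2.31 times for Gc and 3.79 times for Afm, while Cyp2f2, a landmark, differed 1107-fold. None of the 16 pericentral cells was without Alb or Gc.

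Alb varied more than Gc along the score. The ratio of Alb to Gc had medians of 5.19, 5.64, 5.12 and 2.93 from the periportal to the pericentral bin. Its rho with the score was -0.37 over all 80 large-chip cells and -0.54 over the 64, but -0.11 in the small and -0.04 in the medium chip. Over whole chips the ratio ran from 0.535 to 50.0 (median 6.78) in the small, from 1.56 to 30.6 (median 5.92) in the medium and from 0.610 to 32.5 (median 5.00) in the large chip.

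Along the file's column order, whose meaning the labels do not give, the members behaved much as along the score, with which the column rank had a rho of 0.82, 0.91 and 0.94 in the small, medium and large chip. The rho of Alb with the column rank was -0.45, -0.54 and -0.61 (mean -0.53 ± 0.081), that of Gc was -0.53, -0.58 and -0.58 (mean -0.56 ± 0.032) and that of Afm was -0.01, -0.31 and -0.32 (mean -0.21 ± 0.18). By the same rule, 0.692% of genes were graded toward the last columns and 15.4% toward the first, and Alb, Gc and Afm were graded toward the first. Over cells under 50% spike-ins Alb lost that call, since its rho was -0.61, 0.11 and -0.64 in the small, medium and large chip, and so did Afm (-0.17, 0.11 and -0.39), while Gc had -0.68, -0.04 and -0.71. Afm also lost it with the number of genes above 0 held constant (-0.12). With each cell rescaled to 1 mouse gene sum Afm lost it too, since its rho was 0.01 in the small chip. Afp had -0.22, 0.05 and 0.02.

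In 5 equal column bins of the large chip (16 cells each, first to last columns), median Alb was 36064, 45693, 39901, 16034 and 11537, so it was highest in the second bin. Median Gc was 8087, 7530, 5105, 4602 and 3548, highest in the first. Afm had 124, 129, 16.2, 39.4 and 57.8, lowest in the third bin, where spike-ins took a median of 57.7%, against 2.32% to 4.03% in the other 4 bins. In 3 bins of the small chip (13 cells each) median Alb was 80431, 11171 and 12806 and median Gc 10762, 1159 and 1682, with median spike-in shares of 42.2%, 90.0% and 82.3%. In 3 bins of the medium chip (10 cells each) median Alb was 45602, 20253 and 15243 and median Gc 7692, 4084 and 2813, with spike-in shares of 88.9% and 83.5% in the last 2 bins and a lower one in the first. In the small and medium chips the bin with the most Alb was thus the one with the lowest spike-in share, and the part of that share in the order was not tested by bin.

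**Figure D4:**
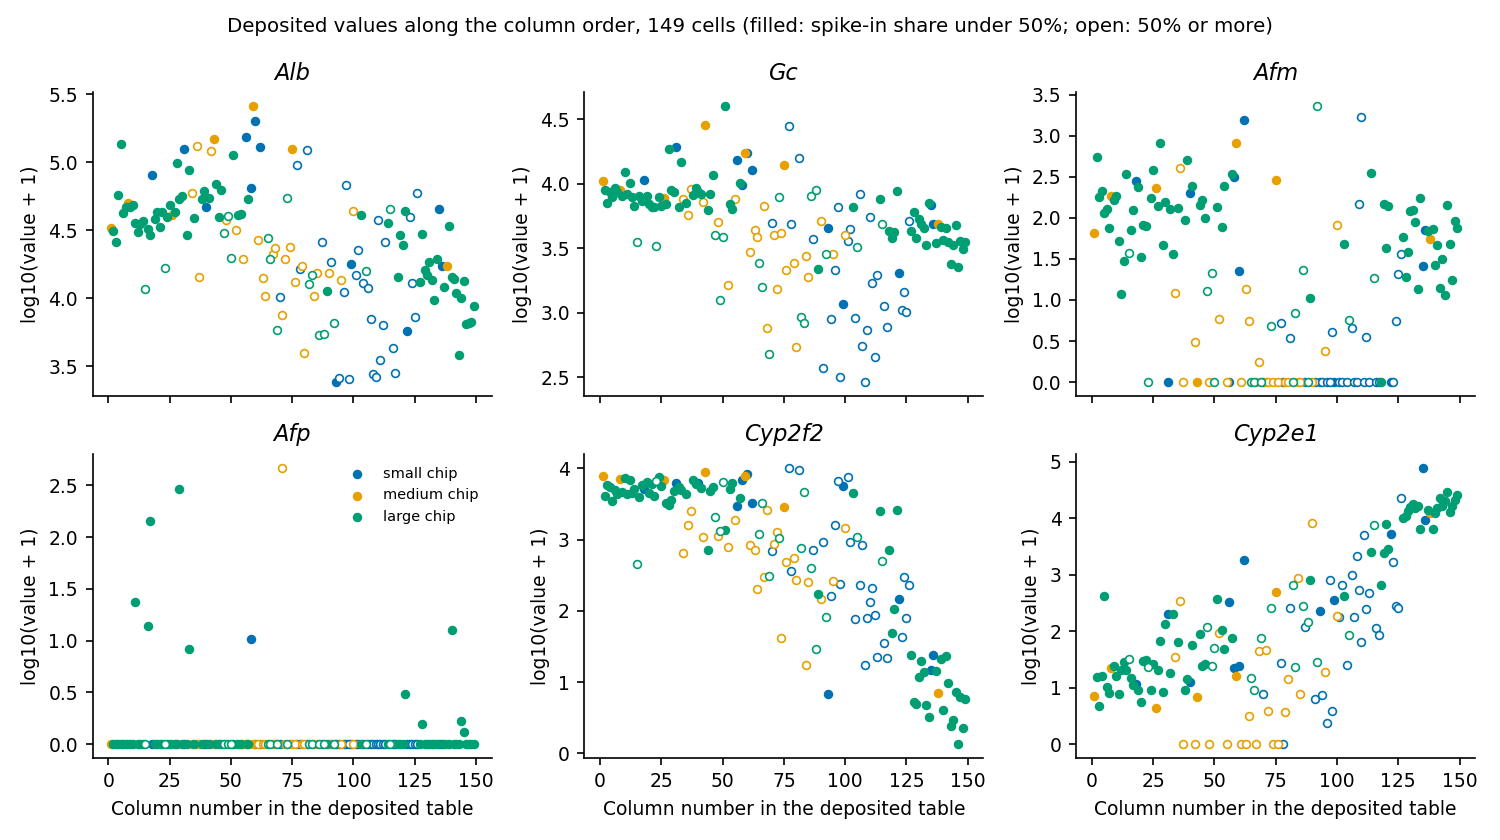
Members and the landmarks Cyp2f2 and Cyp2e1 as log10(value + 1) against the column number, coloured by chip; filled points have a spike-in share under 50%, open points 50% or more. Alb and Gc of the large chip are level over the first columns and lower over the last. Most cells with Afp above 0 lie toward one end or the other, and the 10 of the large chip all have a spike-in share under 50%. The third of 5 large-chip column bins, with a median spike-in share of 57.7%, has Afp above 0 in 0 cells.

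Alb and Gc, 1003 kb apart and on opposite strands, were the closest pair of the family. Their rho was 0.79, 0.61 and 0.72 in the small, medium and large chip (mean 0.71 ± 0.092). In cells under 50% spike-ins it was 0.91, 0.86 and 0.82 (n = 12, 7 and 64), and there Gc was the closest of all genes tested to Alb and Alb the closest to Gc. Over all cells Gc came 19th in likeness to Alb and Alb 3rd in likeness to Gc. Alb and Afm, 42.3 kb apart, had a mean rho of 0.46 ± 0.11, and Gc and Afm 0.44 ± 0.078. Afp, the nearest neighbour of Alb, had a mean rho of -0.03 ± 0.23 with it, on 12 cells above 0. The number of genes above 0 differed between cells of a chip (1488 to 8543, 1215 to 7846 and 1371 to 8819 in the small, medium and large chip). Its part in these values was examined only by holding it constant. The median rho of all genes tested was 0.20 with Alb, 0.24 with Gc and 0.29 with Afm.

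**Figure D5:**
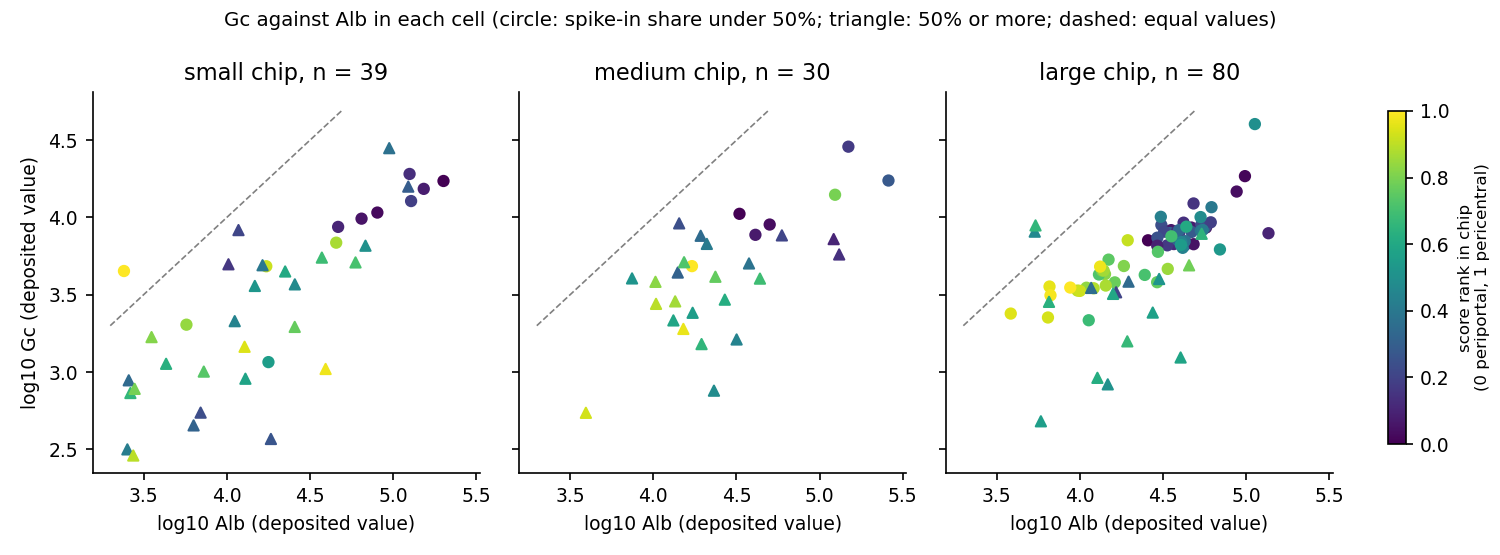
Gc against Alb in each cell on log10 axes, 1 panel per chip, coloured by the rank of the landmark score within the chip (0 periportal, 1 pericentral); circles have a spike-in share under 50%, triangles 50% or more, and the dashed line marks equal values. Most circles form a narrow band, triangles scatter more widely, and of the 3 cells above the line 1 is a circle and 2 are triangles.

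The 5 genes outside the family most like each member, by mean rho over the 3 chips, were mostly genes of secreted plasma proteins for Alb and Gc. For Alb they were Apom (0.76 ± 0.097), an apolipoprotein of HDL, Fgb (0.75 ± 0.066), the fibrinogen beta chain, Mup3 (0.75 ± 0.081), a major urinary protein, Hpx (0.75 ± 0.014), the haem carrier hemopexin, and Apoc3 (0.74 ± 0.040). For Gc, 4 of the 5 were Serpina3k (0.73 ± 0.10), Fgb (0.72 ± 0.073), Mup3 (0.70 ± 0.15) and Azgp1 (0.70 ± 0.059), a zinc-binding glycoprotein. For Afm they were Serping1 (0.61 ± 0.16), the C1 inhibitor, Hp (0.59 ± 0.11), haptoglobin, Lpin1 (0.59 ± 0.11), a phosphatidate phosphatase, Ddrgk1 (0.59 ± 0.064) and Nme1 (0.58 ± 0.18), a nucleoside diphosphate kinase. In cells under 50% spike-ins Alb was closest to Pigr (0.86), Apoa1 (0.86), Cp (0.84), Aox3 (0.82) and Serpina1a (0.82), and Gc to Serpina1c (0.86), Kng1 (0.85), Serpinc1 (0.84), Vtn (0.83) and Clu (0.82). Afm was there closest to Tmem150a (0.71), Ddrgk1 (0.70), Qsox1 (0.69), Slc25a22 (0.66) and Reep6 (0.66). The Mup and Serpina genes have near-identical copies among which reads can be split, so their values are uncertain.

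Among the other liver secretory genes, 25 plasma proteins were listed and tested, of which 0 were graded pericentral and 24 periportal, with a median rho of -0.43 against -0.10 over all genes tested. The 4 with the largest mean rho in size were Ambp (-0.54), the alpha-1-microglobulin and bikunin precursor, Serpinc1 (-0.54), antithrombin, Hpx (-0.53) and Itih4 (-0.51), each smaller in size than the value of Alb or of Gc. This list was drawn up with results of these cells known. In cells under 50% spike-ins 4 of the 25 met the rule, which needs the same sign in the 7 medium-chip cells. The share of all genes meeting it in those cells is not given here, so that count has no background beside it.

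Of 27 listed regulators of the albumin locus, 24 were tested, and 0 were graded pericentral and 9 periportal, against 16.5% of all genes tested (median rho -0.11, near the -0.10 of all genes). In cells under 50% spike-ins 1 was graded pericentral and 6 periportal. The largest in size were Foxa3 (-0.33 ± 0.071), a forkhead factor, Nfia (-0.32 ± 0.17) and Nfib (-0.24 ± 0.13), nuclear factor I proteins, and Nr1h4 (-0.24 ± 0.12), the bile acid receptor FXR. Zbtb20 and Zhx2, known as repressors of Afp in the adult mouse liver and named here for that role after their values were seen, were above 0 in 100 and 51 cells. Of 10 listed carrier and recycling partners, 6 were tested, with 0 graded pericentral and 1 periportal, B2m (-0.31 ± 0.15), the light chain of the receptor that recycles albumin. Ttpa (-0.22 ± 0.27), the vitamin E transfer protein, Rxra (-0.14 ± 0.23), a partner of the vitamin D receptor, and Cyp2r1 (-0.11 ± 0.29), a vitamin D 25-hydroxylase, were not graded. In cells under 50% spike-ins 2 of the 6 partners were graded pericentral and 0 periportal. The share of all genes graded in those cells is not given here, and the shares above are for all cells. The counts of regulators and partners under 50% spike-ins can therefore not be read as a result about these lists.

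Afp was above 0 in 12 cells and high in few. Medium-chip cell 6 had 467, large-chip cell 12 had 291 and large-chip cell 16 had 141. Large-chip cells 62, 70 and 28 had 22.8, 12.8 and 11.7, small-chip cell 14 had 9.43 and large-chip cell 53 had 7.33. The last 4, large-chip cells 61, 1, 39 and 69, had 2.07, 0.68, 0.55 and 0.30. The 3 highest cells held 93.0% of the Afp summed over all cells.

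The 3 highest Afp cells had hepatocyte markers above 0, but every cell had at least 7 of the 10. These markers therefore cannot tell them from other cells. The 3 cells had 9, 10 and 10 of 10 hepatocyte markers above 0, Alb values of 7455, 53741 and 29258 and Cyp2f2 values of 873, 3633 and 5891. Medium-chip cell 6 had 91.1% spike-ins and 1431 genes above 0, whereas large-chip cells 12 and 16 had 5.13% and 2.93% spike-ins. The Alb value of medium-chip cell 6 lay under the lower quartile of its chip (14525), and its Afm was at 0. In the 64 large-chip cells under 50% spike-ins, Afp was above 0 in 2, 3, 2 and 3 cells of the 4 score bins. The highest value per bin was 22.8, 291, 2.07 and 11.7. Of these 10 cells, large-chip cells 61, 1, 39 and 69 had values of 2.07 or less, near the floor. The counts are thus too few and too low to describe how Afp lay along the score. Of the 12 listed fetal liver and progenitor genes, Dlk1, Gpc3 and Igf2bp1 were at 0 in all 149 cells, and in the 12 Afp cells Igf2, Igf2bp3, Lin28b, Top2a, Cd24a and Epcam were also at 0. These 6 were above 0 in only 4, 6, 1, 13, 1 and 1 of the 149 cells. Their zeros therefore cannot tell the Afp cells from other cells. Mki67, a proliferation marker, was above 0 in 2 of the Afp cells, with 0.78 in large-chip cell 12 and 1.28 in large-chip cell 53, and in 13 of all cells. Hmga2, the 1 gene of that list that was tested, was above 0 in 75 cells (mean rho -0.23 ± 0.069) and in 10 of the Afp cells. By chip it was above 0 in 8 of 39 small-chip, 6 of 30 medium-chip and 61 of 80 large-chip cells. Since 10 of the 12 Afp cells were large-chip cells, its count in them cannot be told apart from its share in that chip.

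Markers of other cell types were set beside these results. In the large chip, the sum of 6 cholangiocyte markers had a rho of 0.53 with Alb and -0.59 with the score (small chip 0.27 and -0.11, medium chip 0.19 and -0.21). The sum ran from 0 to 1741, from 0 to 4781 and from 0 to 41184 in the small, medium and large chip, where 22 of 80 cells had at least 3 of the 6 above 0. Krt19, Epcam and Cldn7, defining genes of bile duct cells, were above 0 in 1 large-chip cell each, while Sox9 was above 0 in 81 cells, Krt7 in 96 and Spp1 in 41 of the 149. The highest Spp1 value was 40058. The stellate list had at least 3 of its 6 markers above 0 in 0 small-chip, 2 medium-chip and 1 large-chip cells, and no cell reached 3 of the 5 erythroid or 3 of the 5 lymphocyte markers. The erythroid sum, in which Alas2 was above 0 in 88 cells and each globin gene in at most 1, had rho values of 0.44, 0.53 and 0.16 with Alb in the small, medium and large chip. Kupffer cell and endothelial sums had rho values between -0.26 and -0.02 with Alb. Without the 39 cells that held 3 or more endothelial, Kupffer or stellate markers, the mean rho with the score was -0.59 for Alb, -0.66 for Gc and -0.44 for Afm.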

How the data were processed

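The deposited values are a normalised signal: expected counts that the authors estimated and normalised, with 2 decimals, for 20308 mouse genes and 92 spike-ins in 149 cells. CASAVA 1.8.2, Bowtie 0.12.9, RSEM 1.2.3 and build mm10 are named per the submitters' processing notes. The table's name mentions SCnorm and WaveCrest, of which the labels say nothing, and filters on cells and genes are not given in the sources used here. Read depth is unknown and no count model was used. All columns were mapped by title.

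Tests ran over the 8813 genes with a value above 0 in 20% of cells or more, a filter that 3 of the 4 members passed. The landmark score used log2(value + 1), and each gene was correlated without its own value. Of these genes, 8772 had a rho in all 3 chips. Named genes were the members, the 5 genes most like each, annotated genes from Gc to the first 3 past Afm, landmarks, and up to 4 per list with the largest mean rho; exceptions are named, and 1 of the 5 genes most like Gc is not reported here. Members and lists were chosen with earlier results of these data known. No doublet caller was run, and no test between groups. The scripts were tested on simulated data. Alternatives were pseudocounts, rescaling, Pearson r, a partial correlation, detection limits, gene filters, other landmarks, and leaving out chips or cells. The labels give no run or date. Promoters are from RefSeq (all 4 members matched). Tools were scipy 1.17.1, pandas 2.3.3 and numpy 2.4.6 under Python 3.11.15, with matplotlib 3.10.9 for figures.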

Additional observations from a re-analysis of the deposited data

How the results depend on the processing

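Alb, Gc and Afm kept a negative mean rho with the score and with the column order in every alternative run, among them each landmark left out in turn (Alb -0.53 to -0.60, Gc -0.55 to -0.61, Afm -0.28 to -0.32). Over cells under 50% spike-ins the 3 members no longer met the graded rule with the score, since rho was 0.00, 0.07 and 0.00 for Alb, Gc and Afm in the 7 medium-chip cells. With the column order Alb and Afm (mean -0.15) lost the call over these cells, since both had 0.11 in the medium chip, and Afm came under the limit of 0.2 with the number of genes above 0 held constant (-0.12), and without the medium (-0.16) or the large chip (-0.16). Rescaling each cell to 1 mouse gene sum also cost Afm that call, with a rho of 0.01 in the small chip. Values that moved by more than the SD over chips were as follows. With each cell rescaled to 1 mouse gene sum, Alb had -0.46 with the score and Gc -0.47 with the column order. In the medium chip alone these were -0.19 for Alb with the score and -0.29 for Gc with the column order. With Cyp2e1 and Cyp2f2 as the only landmarks, Alb had -0.42, Gc -0.45 and Afm -0.10, under the limit of 0.2. Over cells under 50% spike-ins, Gc had -0.45 with the score and -0.47 with the column order, and Alb -0.38 with the column order. By Pearson r, Gc had -0.48 with the column order. Without cells holding 3 or more markers of another type, chosen after seeing the data, Afm had -0.44 with the score, and Alb -0.63 and Gc -0.65 with the column order.

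Between members, rescaling gave 0.47 for Alb with Gc, 0.26 for Alb with Afm and 0.17 for Gc with Afm. Holding the number of genes above 0 constant gave 0.61, 0.27 and 0.27. Cells under 50% spike-ins gave 0.86 for Alb with Gc and 0.28 for Gc with Afm.

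Between chips, Afm gave log2 ratios of -6.23 (small over large) and -5.78 (medium over large) by medians and -3.30 (small over large) by means of log2 values. Afp has no stable chip ratio. For small over large it was -2.52 as computed, -4.19 with a pseudocount of 0.1, -0.66 with 10, 0 by medians and -0.34 by means of log2 values. For medium over large it was 1.22 as computed, 2.77 after rescaling, -3.11 under 50% spike-ins and -0.13 by means of log2 values. For small over medium it was -3.74 as computed, -5.52 with a pseudocount of 0.1, -1.32 with 10, 0.84 under 50% spike-ins, 0 by medians and -0.21 by means of log2 values. Afp reached a value of 10 in 0% of small-chip cells. The cause of these moves was not tested.

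Counts of graded genes moved by over 1.5 times: pericentral from 16 to 529 and periportal from 465 to 4061 with the score, against 54 and 1453 as reported, and toward the last columns from 20 to 480 and toward the first from 571 to 4372 with the column order, against 61 and 1355. With no filter on low values, 1782 genes were at least 2-fold higher in small over large and 1694 in medium over large chip, against 1125 and 1117. Among genes above 0 in at least 50% of cells, 511 and 530 were higher and 1873 and 1551 lower, against 3693 and 3302 lower as reported. For small over medium chip, 967 were higher and 1239 lower, against 2051 and 2441. No paired analysis was possible because cell numbers in the labels only name cells and no result comes from a test.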
